A study of Mus musculus with 9 samples.

Results

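The 7 hemoglobin chain genes described here are the embryonic and adult globin genes of the mouse. They are the alpha-cluster genes Hba-x, Hba-a1 and Hba-a2 on chromosome 11 and the beta-cluster genes Hbb-y, Hbb-bh1, Hbb-bs and Hbb-bt on chromosome 7. They were taken by symbol from the 54532 genes of the deposited table, and each symbol was found once. The genes were chosen from their measured counts in these same libraries, so their levels, shares and fold changes are given as a description and carry no test. RNA was sequenced in bulk from the lambdoidal junction, the facial tissue in which the nasal and maxillary prominences meet, of C57BL/6J embryos with no treatment or engineered allele. Each of the stages E10.5, E11.5 and E12.5 had 3 libraries, each from a pool of embryos of 1 stage. The step from E10.5 to E11.5 is called the first interval, that from E11.5 to E12.5 the second interval, and that from E10.5 to E12.5 the whole interval. The p-values given for other genes set the difference between stages against the spread between pools.

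Hemoglobin is a tetramer of alpha-like and beta-like chains, each carrying a heme group. In the mouse the first wave of red cells, the primitive erythroid cells of the yolk sac, enters the circulation as nucleated cells and uses the embryonic chains encoded by Hba-x, Hbb-bh1 and Hbb-y together with adult alpha chains. The definitive red cells that follow from the fetal liver use the adult chains of Hba-a1, Hba-a2, Hbb-bs and Hbb-bt. All of these genes are known chiefly from red cells, which circulate through the vessels of facial tissue at these stages.

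The libraries held 16581009–20836804 counts. One library stood apart. In E10.5 replicate 3, genes in the upper quartile of GC content lay 0.89 lower on the log2 scale, relative to the other E10.5 libraries, than genes in the lower quartile. The same difference was between -0.18 and 0.23 in the E11.5 and E12.5 libraries. For several of the values below, the result without this library is given as well. The facial markers (16 genes, among them Msx1 and Epcam) summed to 1931–3251 CPM (counts scaled to the TMM-adjusted size of each library) over the 9 libraries, and all 16 passed the filter on low counts. Of the 10 markers of fetal liver hepatoblasts, none passed it, and their summed level was 0.474–2.97 CPM over the 9 libraries, highest in E10.5 replicate 3.

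The coding sequences show which globin genes the counts can tell apart. The first 90 coding bases of each gene are shown from the start codon onward, as in the GENCODE vM21 transcripts (GRCm38). Capitals mark bases that differ from Hbb-bs in the beta cluster and from Hba-a1 in the alpha cluster.
Hbb-bs: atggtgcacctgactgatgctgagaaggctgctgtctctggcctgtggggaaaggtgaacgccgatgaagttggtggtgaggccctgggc
Hbb-bt: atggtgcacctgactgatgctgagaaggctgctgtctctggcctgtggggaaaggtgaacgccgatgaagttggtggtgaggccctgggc
Hbb-y: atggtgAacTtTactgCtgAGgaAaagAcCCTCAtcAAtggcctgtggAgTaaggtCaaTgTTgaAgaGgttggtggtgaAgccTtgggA
Hbb-bh1: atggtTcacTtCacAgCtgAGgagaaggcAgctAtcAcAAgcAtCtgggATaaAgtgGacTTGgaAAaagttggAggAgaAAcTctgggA
Hba-a1: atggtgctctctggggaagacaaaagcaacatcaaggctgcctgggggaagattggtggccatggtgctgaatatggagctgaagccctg
Hba-a2: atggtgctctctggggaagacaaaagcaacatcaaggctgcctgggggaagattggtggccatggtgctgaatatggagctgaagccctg
Hba-x: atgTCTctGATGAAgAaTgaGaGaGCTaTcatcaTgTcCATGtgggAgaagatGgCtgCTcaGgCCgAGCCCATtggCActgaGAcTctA

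Over this stretch Hbb-bt did not differ from Hbb-bs, whereas Hbb-y differed at 26 bases and Hbb-bh1 at 29. Hba-a2 did not differ from Hba-a1, and Hba-x differed from it at 44 bases. Over the whole coding sequence, Hbb-bs and Hbb-bt differed at 1 of 444 bases, and Hba-a1 and Hba-a2 at 1 of 429. The embryonic pair Hbb-bh1 and Hbb-y differed at 105 of 444 bases, an identity of 76.4%. Of all stretches of 100 bases along the transcript, 62.6% in Hbb-bs, 54.8% in Hbb-bt, 56.5% in Hba-a1 and 74.5% in Hba-a2 also occurred in another globin transcript, and none did in Hba-x, Hbb-bh1 or Hbb-y. How reads with several positions were counted is not given in the sources used here. The split between the 2 adult copies of a cluster is therefore uncertain, and so is the level of the adult genes against the embryonic ones if such reads were dropped.

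In the table, whose coordinates are GRCm38, the alpha-cluster genes lie on the plus strand of chromosome 11. Hba-x lies at chr11:32276400-32278116, Hba-a1 at chr11:32283511-32284465 and Hba-a2 at chr11:32296489-32297298. The beta-cluster genes lie on the minus strand of chromosome 7, in the order Hbb-y (chr7:103851749-103853216), Hbb-bh1 (chr7:103841637-103843164), Hbb-bs (chr7:103826534-103828096) and Hbb-bt (chr7:103812524-103813996). RefSeq promoter sequence (GRCm38.p6) was matched for 6 of the 7 genes, all except Hbb-bh1. The 120 bases before the RefSeq start are shown for the embryonic gene Hbb-y and the adult gene Hba-a2, to set the letters of an embryonic beta and an adult alpha promoter side by side. These windows share 9 (Hbb-y) and 3 (Hba-a2) bases with the gene as the table places it, and those of the other 4 genes share 73 or more. Capitals mark the core letters, on either strand, of 4 elements found in globin promoters. These are CACCC for KLF1, GATAA for GATA1, CCAAT for NF-Y and TATAA for the TATA box.
Hbb-y, chr7:103853208-103853327, minus strand: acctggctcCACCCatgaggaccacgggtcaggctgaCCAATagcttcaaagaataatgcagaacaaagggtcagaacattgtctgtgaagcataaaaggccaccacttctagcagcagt
Hba-a2, chr11:32296372-32296491, plus strand: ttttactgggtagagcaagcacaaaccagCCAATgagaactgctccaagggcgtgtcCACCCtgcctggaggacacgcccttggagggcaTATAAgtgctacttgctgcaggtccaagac

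The letters CACCC occurred in this window in all 6 globin genes matched, with 2 matches in Hbb-bt and 1 in each of the others. CCAAT occurred in 5 of the 6 (not in Hba-x), TATAA in 5 of the 6 (not in Hbb-y) and GATAA in Hba-x alone. Among all 32851 promoters of the same table and length, 31.7% held CACCC, 21.3% CCAAT, 11.8% TATAA and 10.5% GATAA. A match is a description of the letters and not of a bound site.

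The embryonic genes held most of the beta-cluster counts at all 3 stages, and the adult share was higher at each later stage. Hbb-y, the embryonic epsilon-like chain, gave 68.8–70.9% of the beta-cluster counts at E10.5, then 77.4–81.7% at E11.5, and finally 90.2–91.1% at E12.5. Hbb-bh1, the embryonic chain used by the earliest primitive cells, went the other way, from 28.7–30.9% through 16.4–20.9% to 4.06–5.08%. The adult pair Hbb-bs and Hbb-bt together held 0.315% ± 0.0695 (SD, n = 3) of the cluster at E10.5, then 1.97% ± 0.253 at E11.5, and finally 4.66% ± 0.212 at E12.5.

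In the single libraries the adult share of the beta cluster was 0.365%, 0.236% and 0.343% at E10.5. It was 1.91%, 1.75% and 2.25% at E11.5. At E12.5 it was 4.43%, 4.84% and 4.72%. The 3 stages did not overlap, and the widest 95% Wilson interval of any of these shares was 0.354 percentage points. Reads are PCR products without molecular identifiers, so these intervals cover counting error only. Without E10.5 replicate 3 the E10.5 share was 0.300%. Counted per 100-base stretch that no other globin transcript shares, a scale added after the data were seen, the adult share was 0.689% ± 0.142, 4.14% ± 0.534 and 10.2% ± 0.464 at the successive stages, with n = 3 each.

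The balance between the embryonic beta genes also differed between the stages, and it does not touch the near-identical copies. Hbb-bh1 made up 28.9%, 30.5% and 31.0% of the Hbb-bh1 and Hbb-y counts in the E10.5 libraries. In the E11.5 libraries it made up 16.8%, 21.2% and 17.5%. In the E12.5 libraries it made up 4.71%, 4.27% and 5.33%. The stages did not overlap, and E10.5 replicate 3 (31.0%) lay beside its replicates. In counts, Hbb-y exceeded Hbb-bh1 by 2.32-fold ± 0.126, 4.47-fold ± 0.668 and 20.1-fold ± 2.34 at the successive stages (SD, n = 3).

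**Figure D1:**
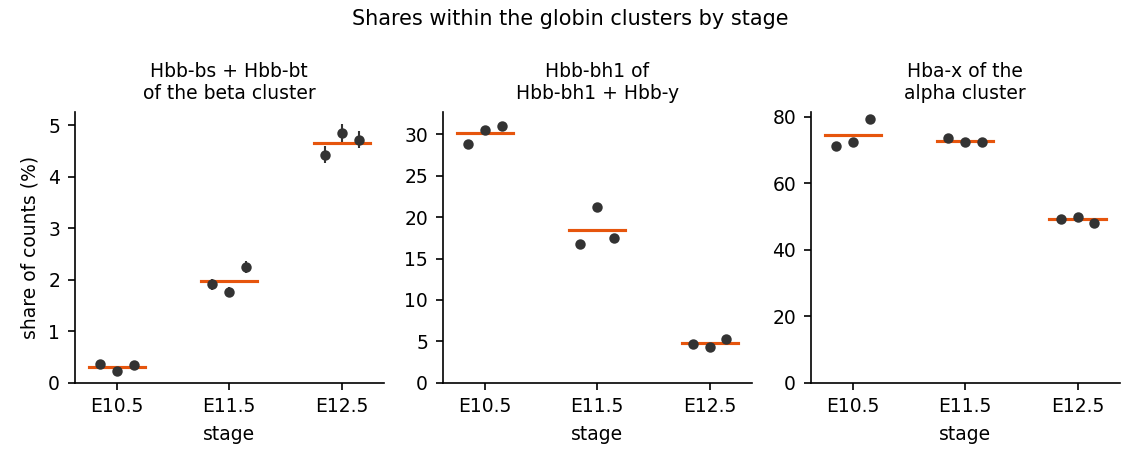
Share of counts in percent on the vertical axes (each from 0) against stage: Hbb-bs plus Hbb-bt within the beta cluster, Hbb-bh1 within Hbb-bh1 plus Hbb-y, and Hba-x within the alpha cluster. Points are the 3 libraries of each stage with 95% Wilson intervals (shorter than the point in most cases), orange lines are stage means; the adult beta share goes from 0.315% to 4.66%, the Hbb-bh1 share from 30.1% to 4.77%, and the Hba-x share stays at 74.4% and 72.8% before 49.1% at E12.5.

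In the alpha cluster the Hba-x shares of E10.5 and E11.5 overlapped, with or without E10.5 replicate 3, while E12.5 lay apart from both. Hba-x, the embryonic zeta-like chain, held 71.3%, 72.5% and 79.3% of the alpha-cluster counts at E10.5. It held 73.7%, 72.4% and 72.5% at E11.5. At E12.5 it held 49.2%, 49.98% and 48.2%, below every earlier library. The E10.5 mean was 74.4% ± 4.32 (SD, n = 3) and 71.9% without replicate 3, the library with the highest Hba-x share. Hba-a1 held 24.3% ± 4.08, 25.2% ± 0.474 and 46.4% ± 0.464 at the 3 stages, and Hba-a2 1.36% ± 0.414, 1.94% ± 0.313 and 4.44% ± 0.623.

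Counted per unshared 100-base stretch, the Hba-x share was 50.5%, 47.8% and 24.5% at the successive stages, and E12.5 stayed lowest. This scale divides the same counts by the unshared stretches and suits them only if shared reads were dropped. No other treatment of shared reads was run. Between E10.5 and E11.5 the adult share of the beta cluster went from 0.315% to 1.97%, whereas the adult share of the alpha cluster was 25.6% ± 4.32 and 27.2% ± 0.757. No test of that difference was made, because both shares belong to the chosen genes.

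**Figure D2:**
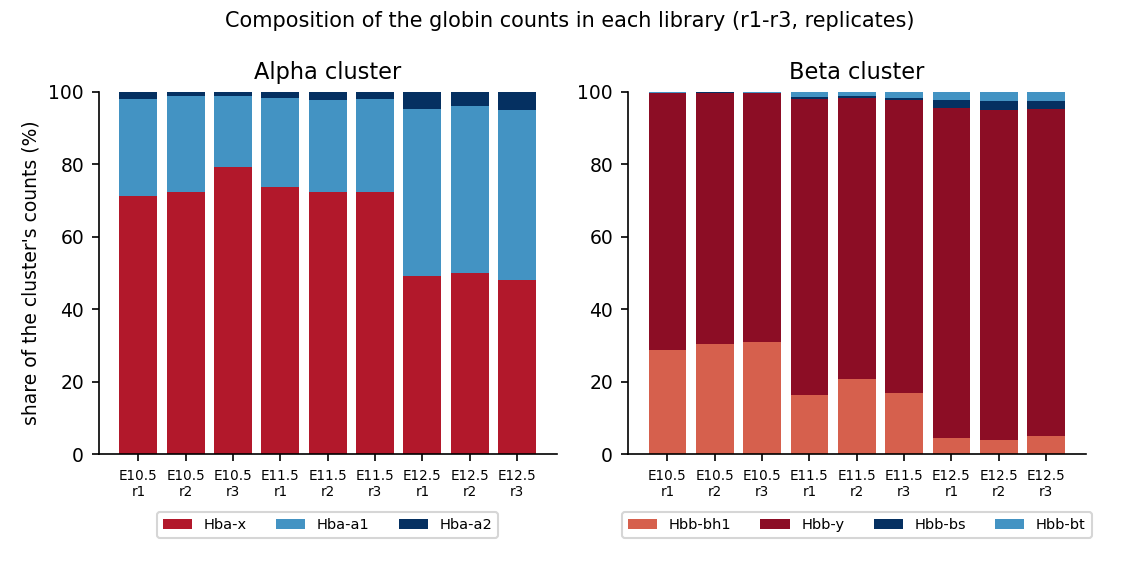
Share of each globin gene in the counts of its cluster (vertical axis, percent, from 0 to 100) in each of the 9 libraries (horizontal axis, stage and replicate), alpha cluster at left and beta cluster at right. Red colours are embryonic and blue colours adult genes; adult alpha genes reach 50.02–51.8% of their cluster at E12.5, adult beta genes 4.43–4.84%.

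The levels of the single genes, which also depend on how much blood a library held, are given in CPM. Fewer red cells and less globin mRNA per red cell cannot be told apart in bulk tissue. Hbb-bs, an adult beta chain, had 73, 39 and 45 counts in the E10.5 libraries. It had 304, 356 and 450 counts in the E11.5 libraries and 1247, 1390 and 1501 in those of E12.5. Its level was 3.13 CPM ± 1.08, 19.1 ± 4.04 and 78.2 ± 10.04 (SD, n = 3), and no stage overlapped another. The log2 fold change was 2.61 (SE 0.27) over the first interval, or 2.54 (SE 0.25) without E10.5 replicate 3, and 2.03 (SE 0.17) over the second interval. Over the whole interval it was 4.65 (SE 0.27), a 25.1-fold difference.

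Hbb-bt, the other adult beta gene, had 102, 44 and 158 counts in the libraries of E10.5, 931, 843 and 1062 in those of E11.5, then 1331, 1356 and 1667 in those of E12.5. Its level was 6.13 CPM ± 3.62, 48.9 ± 7.78 and 82.5 ± 14.7. Most of the difference lay in the first interval, where the log2 fold change was 2.999 (SE 0.40), against 0.75 (SE 0.16) over the second. Without E10.5 replicate 3, the library with the most Hbb-bt counts of that stage, the first of these was 3.51 (SE 0.24). Over the whole interval the log2 fold change of Hbb-bt was 3.76 (SE 0.39), or 4.27 (SE 0.34) without that library. The ratio of Hbb-bs to Hbb-bt was not the same at all stages. Hbb-bs took 41.7%, 47.0% and 22.2% of their joint counts at E10.5, then 24.6%, 29.7% and 29.8% at E11.5, and finally 48.4%, 50.6% and 47.4% at E12.5. The E10.5 shares rest on 83–203 counts, with 95% Wilson intervals up to 21.0 percentage points wide. The E11.5 and E12.5 shares did not overlap.

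Hbb-bh1 had 13764, 10710 and 18277 counts at E10.5, then 10635, 14251 and 11468 at E11.5, and finally 2621, 2302 and 3413 at E12.5. The E10.5 and E11.5 levels overlapped (857 CPM ± 257 and 620.5 ± 58.3), and all E12.5 libraries lay below them (158 CPM ± 40.8). The log2 fold change of Hbb-bh1 was -0.46 (SE 0.21) over the first interval, or -0.21 (SE 0.11) without E10.5 replicate 3. Over the second interval it was -1.98 (SE 0.18). Hbb-y had 33947, 24447 and 40682 counts at E10.5, then 52827, 52871 and 54231 at E11.5, and finally 53000, 51635 and 60593 at E12.5. The lowest E11.5 library lay just above the highest E10.5 library (2542.5 against 2520 CPM), and E11.5 and E12.5 overlapped. Its log2 fold changes were 0.47 (SE 0.20) and 0.18 (SE 0.15) for the successive intervals, and the first was 0.68 (SE 0.12) without E10.5 replicate 3 and 0.28 (SE 0.15) without E10.5 replicate 2. The second was 0.05 (SE 0.11) without E12.5 replicate 3 and 0.11 (SE 0.19) without E11.5 replicate 2.

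Hba-x had 21334, 17283 and 11610 counts at E10.5, then 26677, 29338 and 27902 at E11.5, and finally 14682, 12983 and 14914 at E12.5. Its level was 997 CPM ± 274, 1439 ± 29.6 and 806 ± 96.6, highest in all 3 E11.5 libraries, with overlap between E10.5 and E12.5. The log2 fold change was 0.53 (SE 0.19) over the first interval, 0.35 (SE 0.09) without E10.5 replicate 3, and -0.84 (SE 0.13) over the second interval.

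Hba-a1, which encodes most adult alpha chain reads here, had 8038, 6280 and 2863 counts at E10.5, then 8933, 10303 and 9849 at E11.5, and finally 13730, 12027 and 14524 at E12.5. E10.5 replicate 3 was the lowest library, and the lowest E11.5 library (481 CPM) lay next to E10.5 replicate 1 (478 CPM). The log2 fold change of Hba-a1 was 0.56 (SE 0.30) over the first interval and 0.25 (SE 0.10) without replicate 3, whereas it was 0.88 (SE 0.28) without E10.5 replicate 1. It was 0.61 (SE 0.14) over the second interval. Hba-a2 had 551, 267 and 165 counts at E10.5, then 580, 902 and 763 at E11.5, and finally 1412, 968 and 1505 at E12.5. Its log2 fold change was 0.98 (SE 0.37) over the first interval, 0.67 (SE 0.23) without E10.5 replicate 3 and 1.57 (SE 0.24) without E10.5 replicate 1, the library with the most Hba-a2 counts of that stage. Over the second interval it was 0.94 (SE 0.20). The Hba-a1 count was 18.5-fold ± 4.57, 13.2-fold ± 2.01 and 10.6-fold ± 1.58 that of Hba-a2 at the 3 stages, and 8.22-fold, 5.89-fold and 4.71-fold per unshared 100-base stretch.

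**Figure D3:**
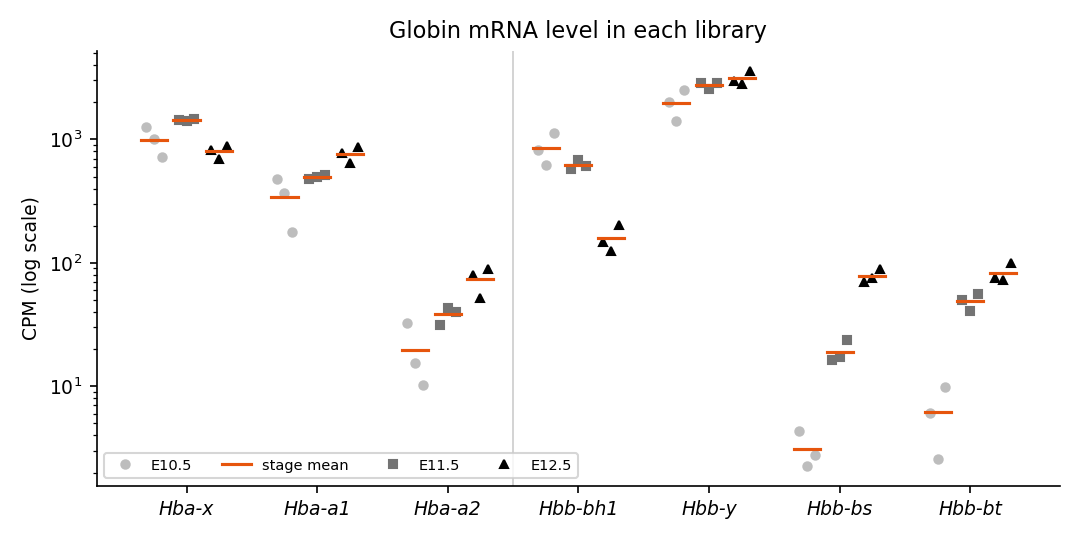
Level of the 7 globin genes (vertical axis, CPM, log scale) in each library of E10.5 (circles), E11.5 (squares) and E12.5 (triangles), with orange lines at the stage means. Hbb-bs goes from 3.13 to 78.2 CPM and Hbb-bh1 from 857 to 158 CPM, while Hbb-y stays the highest gene at every stage.

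All 7 globin genes passed the filter on low counts in each comparison. Over the first interval, all 3 later libraries lay above all 3 earlier ones for 5 of the 7 genes and below for 0, where 18.5% and 18.1% of all 15708 genes tested did so. Over the whole interval the counts were 5 above and 1 below, against 22.3% and 20.1% of 15899 genes. Over the second interval they were 4 above and 2 below, against 18.3% and 17.2% of 15808 genes. The genes were chosen on these contrasts, so nothing is read from the comparison with the background.

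**Figure D4:**
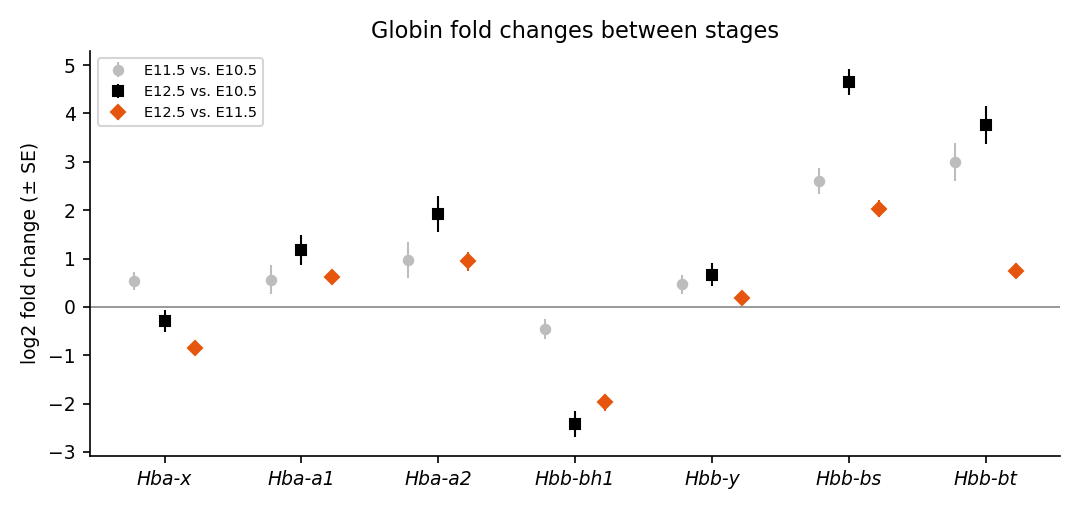
Log2 fold change with its SE (vertical axis) of each globin gene in the 3 comparisons of stages, from the edgeR fit of all genes. Hbb-bs and Hbb-bt stand highest over the whole interval (4.65 and 3.76), Hbb-bh1 lies lowest (-2.43), and Hba-x changes sign between the successive intervals (0.53 and -0.84).

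Per kilobase of gene length, a scale that does not allow for stretches shared between the adult copies, Hbb-y was the highest at each stage, with 3137, 4340 and 4941 CPM per kb. If reads with several positions were dropped, the order below is uncertain between adult and embryonic genes and among the adult copies. At E10.5 it was followed by Hbb-bh1 (1398), Hba-x (1063), Hba-a1 (418.5), Hba-a2 (29.2), Hbb-bt (8.73) and Hbb-bs (4.08). The neighbours Hbb-bh1 and Hba-x overlapped, as did Hbb-bt and Hbb-bs. At E11.5 the order after Hbb-y was Hba-x (1534), Hbb-bh1 (1012), Hba-a1 (614), Hbb-bt (69.5), Hba-a2 (57.4) and Hbb-bs (24.8), with overlap between Hbb-bt and Hba-a2. At E12.5 it was Hba-a1 (939), Hba-x (859), Hbb-bh1 (258), Hbb-bt (117), Hba-a2 (111) and Hbb-bs (102). There Hba-a1 overlapped Hba-x, and the libraries of Hbb-bt, Hba-a2 and Hbb-bs overlapped one another.

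Together the 7 globin genes took 0.404% ± 0.0618, 0.545% ± 0.0204 and 0.523% ± 0.0655 of all counts at the successive stages (SD, n = 3). The ratio of alpha-cluster to beta-cluster counts was 0.625, 0.676 and 0.247 in the E10.5 libraries. It was 0.559, 0.593 and 0.573 at E11.5 and 0.512, 0.458 and 0.461 at E12.5. E10.5 replicate 3 was alone below 0.458. The alpha-cluster transcripts have a GC content of 55.7–57.2% and the beta-cluster transcripts of 46.8–51.3%, and the part of GC content in this ratio was not tested. Without that library the mean E10.5 ratio was 0.651.

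The other genes of the globin families were near the limit of detection or low. Cygb (cytoglobin, made by fibroblast-like cells) had 66–174 counts per library, and the theta-like gene Hbq1b had 10–39. The pseudogene Hbb-bh0 had 4–15 counts, Mb (myoglobin) 0–15, Ngb (neuroglobin) 1–9, Hbb-bh2 0–6, Hba-ps4 0–3 and Hbq1a 0–2. Hbb-bh2, which lies between Hbb-bh1 and Hbb-bs, had 1–6 counts in the E10.5 and E11.5 libraries and 0 in all E12.5 libraries, where a count of 0 allows up to 3 counts.

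Genes outside the globin families were tested across all genes with edgeR's quasi-likelihood test and Benjamini-Hochberg adjustment, where calls needed an adjusted p of at most 0.05 and a log2 fold change of 1 or more in size. Of all genes tested, 3.46% were called higher and 2.61% lower over the first interval. Over the whole interval the shares were 9.97% and 5.08%, and over the second interval 4.14% and 0.962%. The median log2 fold changes of all genes were -0.03, -0.01 and 0.02 in this order.

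Markers of other blood cells and of vessels were read against these shares. Megakaryocyte and platelet markers (11 genes, among them Pf4, Ppbp and Itga2b, with Gp1bb at 0) summed to 46.8, 43.1 and 22.9 CPM in the E10.5 libraries, the lowest being replicate 3. They summed to 74.7–85.3 CPM at E11.5 and 56.6–80.5 CPM at E12.5. Of the 10 tested, 5 were called higher over the first interval, 3 over the whole interval and 0 over the second, where 1 was called lower. Without E10.5 replicate 3 the first count was 4. It was 3 without E11.5 replicate 2, 2 without E10.5 replicate 1, and 1 without E10.5 replicate 2, E11.5 replicate 1 or E11.5 replicate 3. The count over the whole interval was 1 without E12.5 replicate 3, and 2 without either other E12.5 library. The call over the second interval was lost when any 1 library except E12.5 replicate 2 was left out. Macrophage markers (12 genes) summed to 33.4–47.7, 45.6–49.5 and 55.1–61.1 CPM, with 2 called higher over the whole interval, or 1 without E10.5 replicate 2, E12.5 replicate 1 or E12.5 replicate 3.

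Endothelial markers (10 genes) summed to 413, 396 and 144 CPM in the E10.5 libraries, so that replicate 3 stood far below its replicates. At the later stages they summed to 380–382 CPM at E11.5 and 343–397 CPM at E12.5. None of the 10 was called in any comparison by edgeR or DESeq2, and 0, 0 and 2 had an unadjusted edgeR p below 0.05 over the first, the whole and the second interval. Without E10.5 replicate 3 none was called either. The part of these cells in the globin levels was not tested, and the shares within a cluster do not include them.

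Of the 11 heme synthesis genes, edgeR called 0 in each of the 3 comparisons, and 3 had an unadjusted p below 0.05 in each. DESeq2 also called 0. Their median log2 fold changes were 0.04, -0.06 and -0.09 over the first, the whole and the second interval. Alas2, the red cell form of the first enzyme of heme synthesis, had 29.0 CPM ± 4.65, 38.6 ± 2.76 and 24.5 ± 3.20 at the 3 stages. Its log2 fold change over the second interval was -0.66 (SE 0.14, adjusted p = 0.0124 by edgeR with Benjamini-Hochberg), short of the fold threshold, with all 3 E12.5 libraries below those of E11.5. Without E10.5 replicate 3, Cpox (coproporphyrinogen oxidase) was called lower over the whole interval, with a log2 fold change of -1.06. Without E12.5 replicate 2, Slc25a37 (mitoferrin, the iron carrier of the red cell mitochondrion) was called lower over the second interval, at -1.02. Both were named after their values had been seen.

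Of the red cell membrane and red cell protein genes, more fell than rose between E11.5 and E12.5. Of the 28 listed, 27 were in the table (Ahsp, the alpha-globin chaperone, was not analysed here), Icam4 was at 0, and 25 passed the filter. Over the second interval, 8 were called lower and 1 higher, with a median log2 fold change of -0.78 over the 25. Hemgn, a nuclear protein of erythroid precursors, fell from 26.4 CPM ± 0.721 to 2.10 ± 0.743, a log2 fold change of -3.64 (SE 0.22, edgeR adjusted p = 1.28e-05). Slc4a1, the band 3 anion exchanger, fell by 1.28 on the log2 scale (SE 0.22), from 117–129 CPM to 37.4–73.6 CPM. In both genes the E11.5 and E12.5 libraries did not overlap.

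Over the whole interval, 6 red cell genes were called lower, 1 higher, and the median was -0.30. Among the 6 were Hemgn (-2.76), Tfrc (-1.98), the red cell spectrin Sptb (-1.48) and the ankyrin Ank1 (-1.08), as log2 fold changes. Without E12.5 replicate 1, and likewise without E12.5 replicate 3, 4 red cell genes were called in place of 7, with Sptb and Ank1 no longer among them. Ank1 was also not called without E10.5 replicate 1 or without E10.5 replicate 2. Over the first interval the median was 0.27, with 1 gene called in each direction. Tfrc, the transferrin receptor for iron uptake, fell by 1.13 (SE 0.29), and it was no longer called without E10.5 replicate 3, where it had 339 CPM against 153 and 167 in its replicates, or without any 1 of the 3 E11.5 libraries. Each of these left 1 call, and without E10.5 replicate 1 there were 4. In E10.5 replicate 3 Slc4a1 had 43.8 CPM, against 104 and 85.0 in its replicates, so Tfrc did not follow it there. The part of red cells in the Tfrc level was not tested. Aqp1, a water channel of red cells that is also made by endothelium and other tissues, rose in all 3 comparisons, with mean levels of 0.753, 4.43 and 23.2 CPM at the successive stages.

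**Figure D5:**
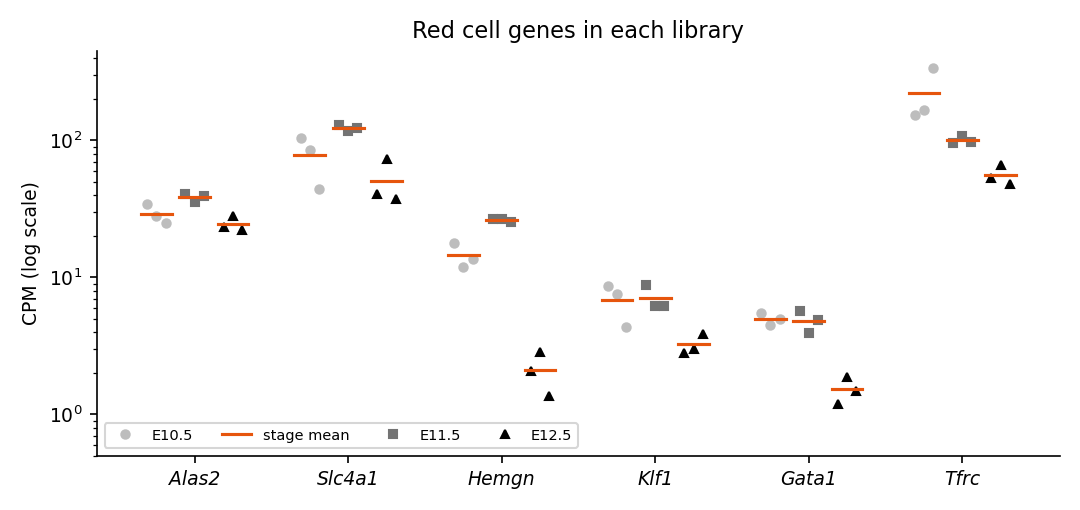
Level of Alas2, Slc4a1, Hemgn, Klf1, Gata1 and Tfrc (vertical axis, CPM, log scale) in each library. The 6 genes come from the lists of heme synthesis, red cell and globin control genes. Circles are E10.5, squares E11.5 and triangles E12.5 libraries, with orange lines at the stage means. The E12.5 libraries lie below the E11.5 libraries for all 6 genes, from 26.4 to 2.10 CPM for Hemgn and from 4.80 to 1.52 CPM for Gata1.

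The globin sum was also set against 13 genes restricted to red cells and their precursors (among them Slc4a1, Hemgn and Alas2), which were picked after the values had been seen and are given with no test. Their summed level was 231 CPM ± 68.0, 329 ± 14.4 and 139 ± 35.9 at the successive stages, and 266 CPM at E10.5 without replicate 3. The 7 globin genes summed to 15.6, 14.6 and 28.5 times this level in the E10.5 libraries and to 15.7–17.2 times in the E11.5 libraries. In the E12.5 libraries the ratio was 38.8, 24.8 and 52.8. E12.5 lay above E11.5 throughout and overlapped E10.5 only through replicate 3. Slc4a1 alone had 129, 117 and 123 CPM in the E11.5 libraries and 40.9, 73.6 and 37.4 CPM in those of E12.5. It is a large part of the summed level, so the ratio follows this 1 gene in part.

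Of the 32 genes with a known part in globin gene control, 3, 3 and 2 were called higher and 2, 6 and 5 lower over the first, the whole and the second interval. The median log2 fold changes were -0.04, -0.28 and -0.28. Most of these genes are also made by facial mesenchyme and epithelium, and the part of red cells in their levels was not tested. Gata1 and Klf1, which activate globin and other red cell genes, are restricted to blood. Gata1 had 5.003 CPM ± 0.501 at E10.5, 4.80 ± 0.878 at E11.5, but 1.52 ± 0.353 at E12.5, and fell by 1.65 over the second interval (SE 0.27, edgeR adjusted p = 0.00297). Klf1 fell by 1.13 in the same comparison (SE 0.23, edgeR adjusted p = 0.0099). It was no longer called there without E11.5 replicate 1 (-0.95) or without E12.5 replicate 1, nor over the whole interval when any 1 library except E10.5 replicate 3 was left out.

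Among the RNA-binding proteins of the fetal globin program, Lin28b went from 159 CPM ± 44.4 through 32.4 ± 6.55 to 6.04 ± 0.891 and fell by 4.71 over the whole interval (SE 0.26, edgeR adjusted p = 1.53e-06). Lin28a went from 80.7 CPM ± 26.1 through 4.18 ± 1.71 to 0.537 ± 0.292. Igf2bp1 fell by 1.49 (SE 0.18) over the same interval. Its log2 fold changes in the single intervals were -0.53 and -0.97.

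Among factors that act on embryonic or fetal globin genes, Bcl11a rose by 1.06 (SE 0.16) over the first interval (edgeR adjusted p = 0.00678), from 62.7 CPM ± 13.2 to 130 ± 10.2. Without E10.5 replicate 3 its log2 fold change was 0.89 and it was not called. Nfix rose from 0.752 CPM ± 0.508 to 19.5 ± 5.79 and 82.3 ± 19.996, and Nfia from 7.39 ± 2.21 to 29.3 ± 4.41 and 69.1 ± 6.80. Zbtb7a, Myb and Sox6 were not called in any comparison. Their log2 fold changes over the whole interval were 0.45 (SE 0.30), -0.15 (SE 0.23) and 0.48 (SE 0.26).

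Over the 9 libraries, the genes whose level most resembled that of the globins were not red cell genes of the lists. Among 11538 genes with a mean of at least 5 CPM, the highest Pearson r of log2(CPM + 1) with the sum of Hbb-bs and Hbb-bt was that of Lrrc28 (0.99), followed by Ackr3, Rnf180, Nrep and Ddit4l. For Hba-a1 plus Hba-a2 it was Sertad1 (0.99), and Cpxm1, Ramp2 and Wdr86 were among the next. For the embryonic sum of Hbb-bh1, Hbb-y and Hba-x it was Nudt4 (0.90), followed by Gm47547, Khdrbs1, Gm5869 and Chn2 (0.84). This sum joins genes of unlike course, with log2 fold changes over the whole interval of -2.43, 0.66 and -0.30 in that order. Red cell genes with a mean below 5 CPM, such as Gata1, were not compared. Stage, depth and base composition differ between libraries, and their part in these values was not tested. The values describe the 9 libraries only.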

How the data were processed

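Bulk RNA-seq libraries of lambdoidal junction tissue were analysed, 3 per stage. Per the labels and the study's methods, the authors aligned reads to mm10 (HISAT2 2.0.5) and assigned them to genes with featureCounts. The deposited count columns hold whole-number read counts per gene, without normalization, and are the sole source of the values. Strand use, read length and the treatment of reads with several positions are not given in the sources used here. The deposited FPKM columns, the authors' group means, and the log2 fold changes and p-values of the authors' comparisons were not used.

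The globin genes and all gene lists were chosen with earlier results of these data known. Levels are CPM on TMM-scaled sizes of the 9 libraries. Shares are counts of a gene over those of its cluster, with 95% Wilson intervals (scipy 1.17.1). For each comparison, edgeR 4.0.16 in R 4.3.3 was fitted to the 6 libraries concerned (filterByExpr, TMM, quasi-likelihood test, Benjamini-Hochberg over all genes tested). The script was tested on simulated data. The SE is the absolute log2 fold change over the square root of the F statistic. Named are the 7 globin genes, other globin genes with counts, 14 preset red cell and regulator genes, up to 3 called genes per list, direction and comparison with the smallest p, and the 5 genes most like each of 3 globin sums. Some genes that this rule names are not reported here. Sptb, Ank1, Cpox and Slc25a37 were named after their values had been seen. Sequences came from GENCODE vM21 transcripts and RefSeq promoters. Alternatives were counts per kb, DESeq2 size factors, upper quartile normalization, DESeq2 1.42.0, other count filters, a fit on 9 libraries, a replicate block, normalization without the globin genes, omission of each library, and, added after the data were seen, counts per unshared 100-base stretch and the calls of blood and vessel markers under each alternative.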

Additional observations from a re-analysis of the deposited data

How the results depend on the processing

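Across all alternatives, each globin fold change moved by less than the spread between its replicates (294 of 294 values). Leaving out a single library could hardly move a value by more than that, so those values are a weak check. With single libraries left out, the log2 fold change over the first interval ranged from 0.25 to 0.88 for Hba-a1 and from 0.67 to 1.57 for Hba-a2. Of the 45 values of the shares, 36 moved by less than the SD. The share values with a single library left out could not move by more than that. The other 9 values all came from a change of scale. Per kb of gene length, the adult share of the beta cluster was 4.05% at E12.5, and the Hba-x share 69.6% at E11.5 and 45.1% at E12.5. Per unshared 100-base stretch, the adult beta share was 0.689%, 4.14% and 10.2% and the Hba-x share 50.5%, 47.8% and 24.5% at the successive stages. Leaving out single libraries gave 1–4 red cell genes called over the first interval (E10.5 to E11.5), 4–8 over the whole interval (E10.5 to E12.5), and 0–1 heme synthesis genes over the whole and over the second interval. With at least 10 counts in every library, 1 red cell gene was called over the first interval. For the other named genes 728 values kept their status, which includes those not called in either fit. A call was lost in 17 values and gained in 5. The replicate block gave 2, 7 and 9 red cell genes, 5, 10 and 8 regulators, 0 heme synthesis genes, and 2, 3 and 1 megakaryocyte markers over the first, the whole and the second interval. The deviations of same-numbered libraries correlated between -0.24 and 0.24, and those of differently numbered libraries between -0.29 and 0.33. With so few libraries per stage, these values cannot decide whether the numbers pair the samples. Depth limits Hbb-bs and Hbb-bt at E10.5, with 39–158 counts per library. The causes of these shifts were not tested.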
